A study of Mus musculus with 3 samples.

Results

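The Hist1 cluster is the main group of replication-dependent histone genes of the mouse, on chromosome 13. It was examined here as the H3K27ac and H3K4me3 peaks that overlap 2 stretches of mm9 chosen by position: 21780000 to 22150000 (370 kb, called the proximal part) and 23600000 to 23880000 (280 kb, the distal part). The interval between them, 22150000 to 23600000, served as the comparison. These bounds were set with earlier results of these data known. The cluster held 40 of 29468 deposited H3K27ac peaks and 52 of 18142 H3K4me3 peaks. Of these, 21 H3K27ac and 31 H3K4me3 peaks lay in the proximal part, and 19 and 21 in the distal part. The interval held 14 and 16.

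The peaks come from chromatin immunoprecipitation and sequencing (ChIP-seq) of mouse leukaemia cells: cultured acute lymphoblastic leukaemia cells of the pre-B type, driven by Bcr-Abl, a fusion protein with constant tyrosine kinase activity. All 3 libraries come from these cells, cross-linked with 11% formaldehyde, and the labels name no treatment. There was 1 library for histone H3 acetylated at lysine 27 (H3K27ac), 1 for histone H3 trimethylated at lysine 4 (H3K4me3) and 1 for control immunoglobulin (IgG), whose signal was not analysed here. The sources used here do not state whether the cells were 1 clone or how many reads were sequenced. The labelled cell type could not be checked against marker genes, since no annotation of mm9 was at hand. With 1 library per mark no value below has a replicate error and no test between samples was possible. Intervals given with percentages are exact 95% Clopper-Pearson intervals and cover counting error only.

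Replication-dependent histone genes supply the core histones H2A, H2B, H3 and H4, around which DNA is wrapped, and the linker histone H1, which binds between these particles. They are short genes without introns, present in many copies, and are transcribed mainly while DNA is being copied. Their messages end in a stem-loop in place of a poly(A) tail, and their transcription takes place in a nuclear compartment called the histone locus body. H3K4me3 is found at promoters in use, and H3K27ac at active promoters and enhancers. The histone H3 that carries both marks is itself partly a product of this cluster.

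The RefSeq gene table follows another assembly, GRCm38.p6, so it was used only for names, classes and gene order, and no peak was assigned to a gene. It lists 54 Hist1 genes in 2 runs, 52 of them protein-coding and 2 pseudogenes. The first run has 24 genes, with 1 H1 gene (H1f5), 8 H2A, 8 H2B, 2 H3 and 5 H4 genes. The second run has 30, with 5 H1 genes (H1f1, H1f2, H1f3, H1f4 and H1f6), 6 H2A, 6 H2B, 7 H3 and 6 H4 genes. H4bc24 was counted as an H2B gene from its synonym in the table. The first run is broken after its first 19 genes by 39 other genes, of which 31 are transfer RNA genes and 3 code for proteins (Zfp184, Pom121l2 and Prss16), and then ends with 5 more histone genes. In the second run the longest break, between H4c3 and H1f2, has 2 genes, 1 of which is Hfe, a regulator of iron uptake. Between the runs the table lists 147 genes. These include 75 vomeronasal receptor genes and pseudogenes of the Vmn1r family, which act in pheromone sensing, and 46 transfer RNA genes. A further pair of histone genes, H2bc1 and H2ac1, lies beyond the second run.

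Promoter sequences are shown for 1 gene of each class because the classes share some motifs and differ in others. Of the 54 genes, 49 were matched in the RefSeq promoter table, giving 50 windows of 300 bases (250 before to 50 after the annotated start). Windows of neighbouring genes can overlap: 18 of the 50 overlapped another, and in 9 cases an H2A and an H2B gene on opposite strands shared bases, so 1 match can count for both genes. Each gene shown had the most motif types of its class in the 200 bases before its start, the first along the chromosome where several tied. Their positions, on GRCm38.p6 and not comparable with the mm9 peak positions, are chr13:21780626-21780825 for H1f5 (minus strand), chr13:23750888-23751087 for H2ac4 (plus strand), chr13:21721844-21722043 for H2bc14 (plus strand), chr13:21717428-21717627 for H3c10 (plus strand) and chr13:23581368-23581567 for H4c4 (plus strand). Capitals mark matches, on either strand, to TATAAA (the TATA box), CCAAT (the CCAAT box), ATTTGCAT (the octamer bound by Oct factors) and AAACACA (the H1 box).
H1f5: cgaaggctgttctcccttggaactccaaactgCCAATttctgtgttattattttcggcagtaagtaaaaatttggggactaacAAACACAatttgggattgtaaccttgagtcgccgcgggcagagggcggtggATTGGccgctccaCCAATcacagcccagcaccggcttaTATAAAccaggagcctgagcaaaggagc
H2ac4: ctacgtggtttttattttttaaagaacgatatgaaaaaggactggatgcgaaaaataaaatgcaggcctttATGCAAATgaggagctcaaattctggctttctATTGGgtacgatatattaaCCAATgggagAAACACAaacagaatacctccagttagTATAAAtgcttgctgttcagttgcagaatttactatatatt
H2bc14: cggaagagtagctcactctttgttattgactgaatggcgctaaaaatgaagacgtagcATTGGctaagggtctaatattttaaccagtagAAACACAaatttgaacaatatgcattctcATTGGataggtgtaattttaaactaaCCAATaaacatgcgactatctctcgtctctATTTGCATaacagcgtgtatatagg
H3c10: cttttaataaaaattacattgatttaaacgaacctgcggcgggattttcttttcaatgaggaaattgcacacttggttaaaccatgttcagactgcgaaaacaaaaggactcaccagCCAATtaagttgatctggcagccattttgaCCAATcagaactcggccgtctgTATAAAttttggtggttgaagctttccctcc
H4c4: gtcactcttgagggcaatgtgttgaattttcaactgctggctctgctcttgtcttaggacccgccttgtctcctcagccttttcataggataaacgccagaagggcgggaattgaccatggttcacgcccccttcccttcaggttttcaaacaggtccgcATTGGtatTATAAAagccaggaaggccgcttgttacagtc

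CCAAT was found in 42 of the 50 Hist1 windows (84%), compared with 37.4% of all 32851 promoter windows in the table. All 6 H1, 12 H2A, 14 H2B and 7 H3 windows held it, but only 3 of 11 H4 windows did. TATAAA was present in 29 windows (58%, against 13.6% of all windows). A TATA box proper lies a short way before the start, and on the strand of the gene 11 of 25 matches began 20 to 45 bases before it. For H1 genes these were 4 of 4 matches, at 26 to 33 bases, but for H4 genes only 1 of 8. The octamer occurred in 9 windows (18%, against 1.74%). It was found in 5 H2B and 4 H2A windows and in no H1, H3 or H4 window, and on the strand of the gene only for H2B. AAACACA was found in 5 of 6 H1 windows, between 112 and 122 bases before the start, and in 2 others, among H2A and H2B. Its share over all promoters was 7.18%. In the sequence of H1f5 it begins 117 bases before the start, with TATAAA at 28 bases. In H2ac4 the octamer lies on the opposite strand, beginning 129 bases before the start. These matches are descriptions of letters, not sites of binding.

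**Figure D1:**
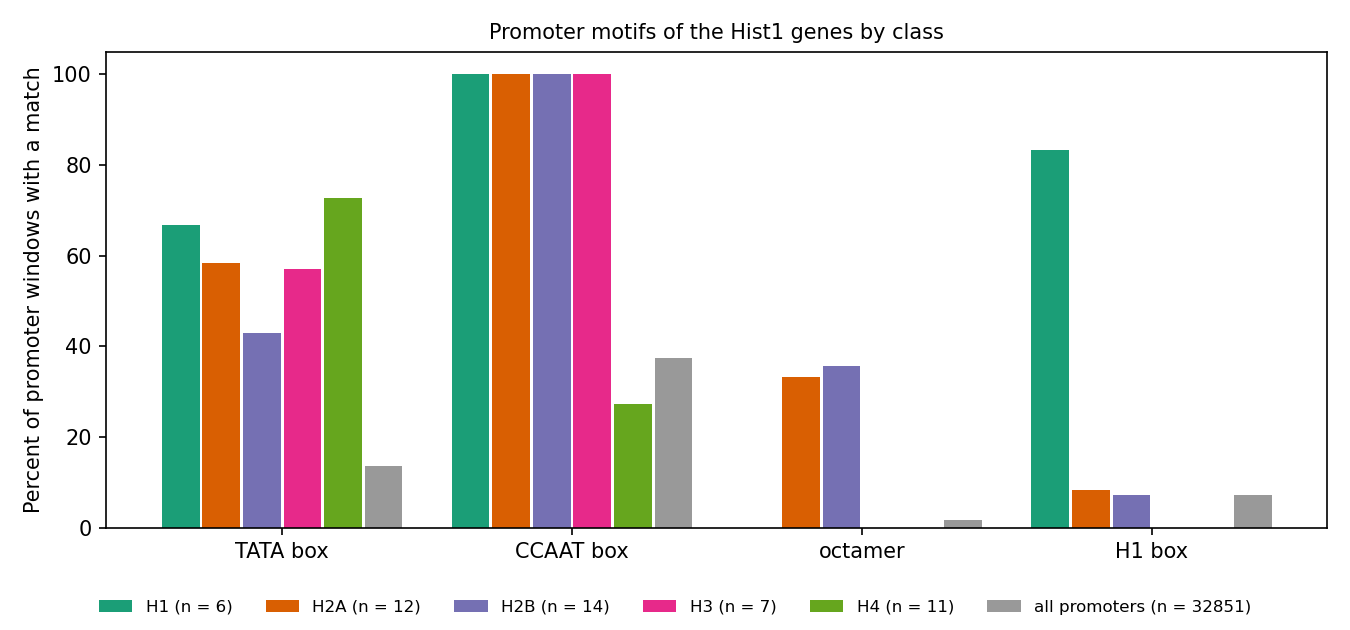
Share of Hist1 promoter windows (percent, y axis) with a match to each of 4 motifs (x axis) by histone class and for all promoters in the RefSeq table (GRCm38.p6); n is the number of windows. CCAAT is in every H1, H2A, H2B and H3 window but in 27.3% of H4 windows, and the H1 box is in 83.3% of H1 windows.

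Both marks were dense over the cluster. H3K27ac covered 200 kb, or 30.8% of its bases, and H3K4me3 covered 148 kb, or 22.8%. In the interval these percentages were 1.57 and 2.20%, and over all chromosomes up to their last peak they were 2.49 and 1.35%. Coverage in the cluster was thus 19.7 times (H3K27ac) and 10.4 times (H3K4me3) that of the interval, and peaks per Mb were 6.37 and 7.25 times as many, with 61.5 against 9.66 for H3K27ac and 80.0 against 11.0 for H3K4me3. These ratios are to the interval as a whole, which includes 1016 kb with neither mark. They do not describe its last 100 kb, next to the distal part, where 10 peaks of each mark lie and 7 of the 10 H3K4me3 peaks score 3100 or more. The H3K27ac ratio also depends on the bounds: drawn in by 20 kb, they gave 30.9% in the cluster and 2.96% in the interval. The distal part was the more acetylated, with 41.8% of its bases under H3K27ac against 22.5% in the proximal part, a ratio of 1.86. H3K4me3 differed less, at 25.5 and 20.8%, a ratio of 1.23.

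When the chromosomes were cut into adjoining windows of the same length as each part, few windows were covered as much. For H3K27ac, 0.351% of 7117 windows of 370 kb reached the 22.5% of the proximal part, and 0% of 9407 windows of 280 kb reached the 41.8% of the distal part, where the highest value was 36.1%. For H3K4me3 the shares were 0% (highest 18.6%) and 0.0106%, which is 1 window at 26.1%. The windows took in the cluster itself. Both of these highest H3K4me3 windows hold the end of the interval and a piece of the distal part, so neither is another place in the genome. Median windows of these lengths were covered to between 0.259 and 0.758%. The bounds of the 2 parts were set to enclose the cluster while the windows fall anywhere, so a window can cut such a stretch into pieces. The interval was near the middle of windows of its length for H3K27ac, since 49.4% of 1809 windows were covered as little or less, and above it for H3K4me3, where this share was 79.3%.

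**Figure D2:**
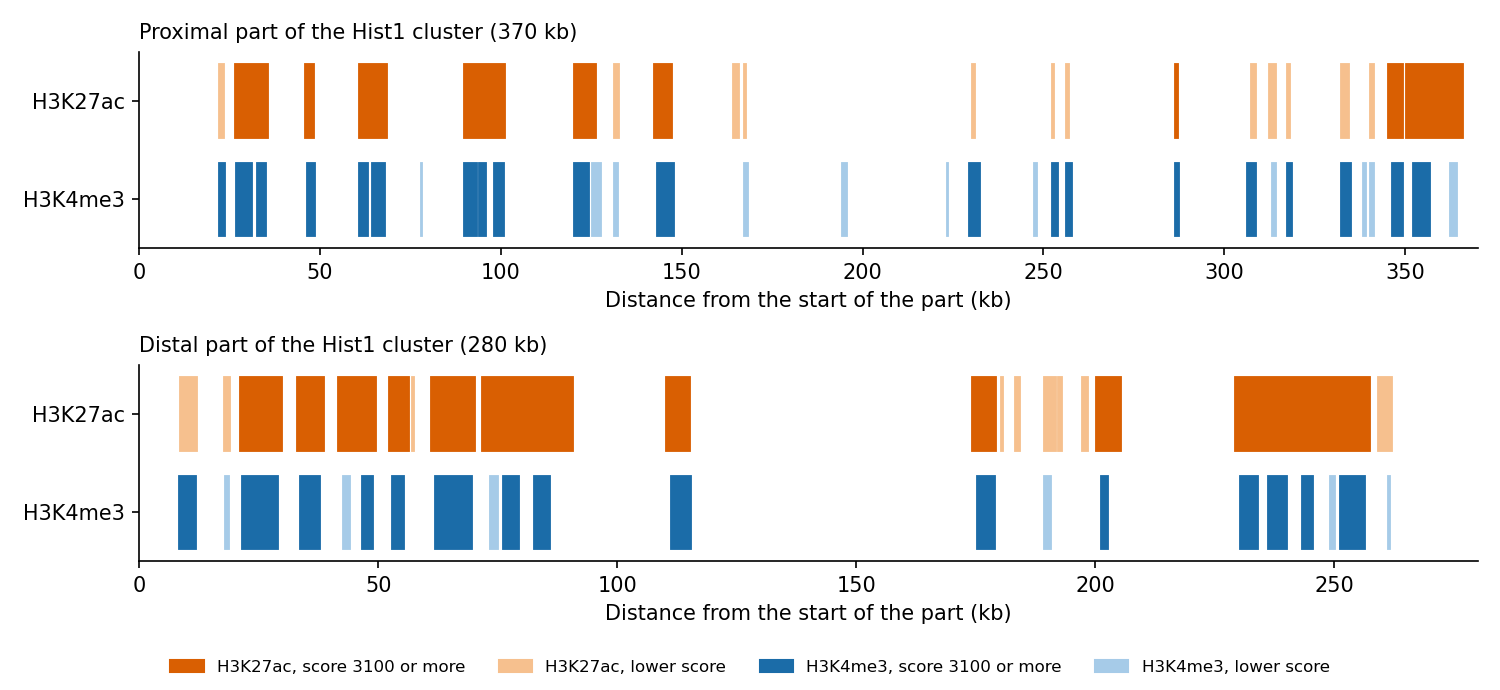
Peaks of H3K27ac (upper row) and H3K4me3 (lower row) along the 2 parts of the Hist1 cluster; the x axis is the distance from the start of each part in kb and dark colours mark scores of 3100 or more. H3K27ac forms long blocks, some of them over several H3K4me3 peaks, at both ends of the proximal part and along the distal part. The middle of the proximal part has shorter H3K27ac peaks, 1 of 11 at the ceiling (3100 or more). That stretch was picked for having no H3K27ac peak of at least 4000 bp, a choice that itself lowers both width and ceiling count.

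Each peak has a score given by the authors, which neither a header nor a label defines. Scores run from 50.01 to 3233.06, and many equal exactly 3100, called the ceiling here. In the cluster 19 of 40 H3K27ac peaks (47.5%, interval 31.5 to 63.9%) were at or above the ceiling, compared with 24.1% of the whole list. For H3K4me3 this held for 35 of 52 (67.3%, interval 52.9 to 79.7%), compared with 50.3%. By part the H3K27ac shares were 42.9% (proximal, interval 21.8 to 66%), which includes 24.1%, and 52.6% (distal, interval 28.9 to 75.6%). The H3K4me3 shares were 64.5% (proximal, interval 45.4 to 80.8%) and 71.4% (distal, interval 47.8 to 88.7%), and both include 50.3%. Between the parts the shares were 14.3% for H3K27ac and 50% for H3K4me3. Scores were not compared between the marks.

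Wide peaks of both marks were more frequent in the cluster than in the whole lists, for H3K4me3 mainly in the distal part. The median width of H3K27ac peaks was 2809.5 bp (order-statistic interval 1567 to 5233 bp), an interval that includes the 1782 bp of the whole list. It was 4417 bp in the distal part and 1797 bp in the proximal part, close to the list. At least 4000 bp were spanned by 17 of 40 H3K27ac peaks (42.5%, interval 27 to 59.1%), against 10.9% of all. More than 10000 bp were spanned by 4 of them (10.0%, interval 2.79 to 23.7%), against 1.04%. H3K4me3 had a median of 2612 bp (interval 1888 to 3429 bp), compared with 1807 bp, and 12 of 52 peaks (23.1%, interval 12.5 to 36.8%) reached 4000 bp, against 5.83% of all. By part the H3K4me3 medians were 2315 bp (proximal, interval 1768 to 2973 bp) and 3528 bp (distal, interval 1794 to 4141 bp). Both intervals include 1807 bp. In the distal part 8 of 21 H3K4me3 peaks (38.1%, interval 18.1 to 61.6%) reached 4000 bp. In the proximal part 4 of 31 did (12.9%, interval 3.63 to 29.8%), an interval that includes 5.83%. None of the 52 exceeded 10000 bp.

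In the proximal part the widest H3K27ac peaks measured 16.1 kb (22130061 to 22146122), 11.6 kb (21869357 to 21880990), 9.35 kb (21806162 to 21815513), 8.10 kb (21840528 to 21848626) and 6.32 kb (21900079 to 21906399). A further 2 exceeded 4000 bp, at 5.23 kb (21922418 to 21927650) and 4.54 kb (22125462 to 22129998). The last of these ends 62 bp before the 16.1 kb peak begins, so nearly 1 stretch was listed as 2 peaks. All 7 were at the ceiling and all 7 overlapped H3K4me3. The 4 widest H3K4me3 peaks there measured 5003 bp (22131699 to 22136701), 4716 bp (21922748 to 21927463), 4472 bp (21806598 to 21811069) and 4446 bp (21899993 to 21904438), followed by 3794 bp (21844225 to 21848018). Each of these 5 H3K4me3 peaks overlapped 1 of the 7 wide H3K27ac peaks, by 98.1% of its length at 21899993 and by 100% at the others.

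In the distal part the widest H3K27ac peaks measured 28.6 kb (23829181 to 23857734), 19.4 kb (23671361 to 23690757), 9415 bp (23660924 to 23670338), 8973 bp (23620906 to 23629878) and 8332 bp (23641256 to 23649587). The 5 others of at least 4000 bp ranged from 4417 to 5910 bp. All 10 were at the ceiling, and no narrower H3K27ac peak of this part was. The widest H3K4me3 peaks measured 8003 bp (23661598 to 23669600), 7776 bp (23621343 to 23629118), 5447 bp (23851497 to 23856943), 4430 bp (23710853 to 23715282) and 4405 bp (23633518 to 23637922), and 3 others had 4027 to 4141 bp. The first peaks of the distal part began at 23608204 (H3K4me3) and 23608280 (H3K27ac), and its last ended at 23861360 and 23862511. In the proximal part the first began at 21801708 (H3K27ac) and 21801717 (H3K4me3), and the last ended at 22143850 (H3K4me3) and 22146122 (H3K27ac). Outside the cluster the nearest H3K27ac peaks were 178 kb before its first peak of that mark and 115 kb after its last, and the nearest H3K4me3 peaks were 178 kb before and 164 kb after, measured in the same way.

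Some of the long acetylated blocks held several H3K4me3 peaks each. Of the 40 H3K27ac peaks 8 met 2 or more H3K4me3 peaks (20%, interval 9.05 to 35.6%), compared with 2% of the whole list. These 8 held 21 of the 52 H3K4me3 peaks. The other H3K27ac peaks of at least 4000 bp met 1 each, among them the distal peaks of 9415 and 8973 bp. The 28.6 kb peak held 5, the highest number for any H3K27ac peak in the list. Their widths in order were 4027, 4118, 2608, 1209 and 5447 bp, and the stretches free of H3K4me3 between them were 1652 to 3167 bp long. The 19.4 kb peak held 3 H3K4me3 peaks, of 1985, 3601 and 3528 bp, and 47.0% of its length was under them. The 11.6 kb peak of the proximal part also held 3, of 3669, 2294 and 3121 bp, with gaps of only 468 and 1627 bp, and 78.1% of its length was under H3K4me3. In the 16.1 kb peak, which held 2, this percentage was 45.6%. Conversely, 0 of the 52 H3K4me3 peaks met 2 or more H3K27ac peaks, and the interval of 0 to 6.85% includes the 2.57% of the whole list.

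The 2 marks shared 134 kb in the cluster, which is 67.0% of the H3K27ac length there and 90.4% of the H3K4me3 length. In the whole lists these shares were 45.7 and 84.3%, and in the interval between the parts they were 85.4 and 60.9%. By part they were 75.3 and 81.6% in the proximal part and 61.1 and 99.9% in the distal part. The H3K4me3 share was thus above that of the whole list only in the distal part. By number, 34 of 40 H3K27ac peaks (85.0%, interval 70.2 to 94.3%) overlapped H3K4me3, compared with 52.3% of the list and 11 of 14 in the interval between the parts (78.6%, interval 49.2 to 95.3%). Among H3K4me3 peaks 47 of 52 did (90.4%, interval 79.0 to 96.8%), close to the 86.1% of the list, and in the interval 10 of 16 did (62.5%, interval 35.4 to 84.8%). The parts differed in which mark stood alone. In the distal part all 21 H3K4me3 peaks overlapped H3K27ac, and 5 of 19 H3K27ac peaks had no H3K4me3. In the proximal part 5 of 31 H3K4me3 peaks had no H3K27ac, and 1 of 21 H3K27ac peaks had no H3K4me3. No test of this difference was made, because the peaks come from 1 library per mark.

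**Figure D3:**
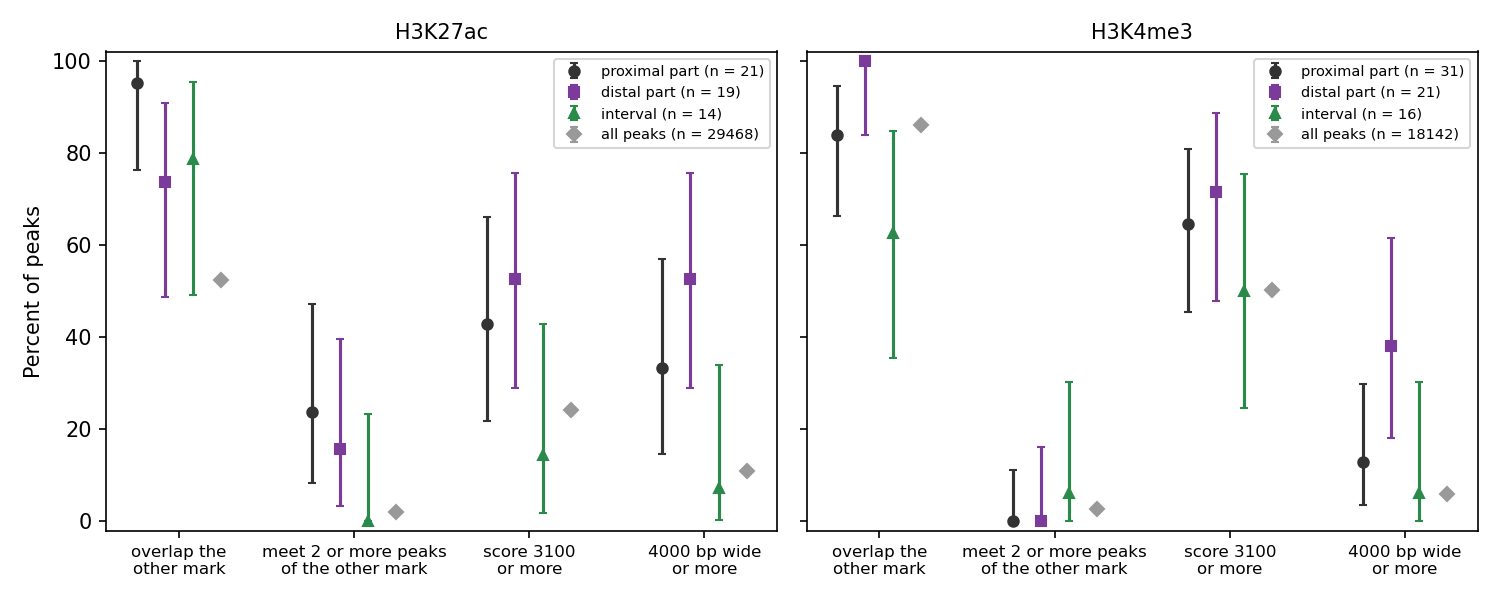
Percent of H3K27ac peaks (left) and H3K4me3 peaks (right) with each of 4 properties (x axis), in the proximal part, the distal part, the interval and the whole list; bars are exact 95% intervals and n is the number of peaks. H3K27ac peaks of 4000 bp or more make up 33.3% and 52.6% in the 2 parts, against 7.14% in the interval and 10.9% in the list.

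The H3K27ac peaks without H3K4me3 in the distal part were small and low in score. They lay at 23656932 to 23657473 (542 bp, score 59.20), 23780277 to 23780980 (704 bp, 204.26), 23783254 to 23784520 (1267 bp, 60.01), 23792231 to 23793299 (1069 bp, 169.63) and 23797422 to 23798843 (1422 bp, 123.83). The nearest H3K4me3 peak was between 1.26 and 4.57 kb away, and 4 of the 5 fell in 1 stretch between the ceiling peaks of H3K27ac that end at 23779445 and begin at 23800285. The proximal peak of this kind (21943517 to 21945236, 1720 bp) scored higher, at 1275.67, and lay 1.72 kb from H3K4me3. The H3K4me3 peaks without H3K27ac, all in the proximal part, were 21857455 to 21858143 (689 bp, score 71.47), 21973656 to 21975423 (1768 bp, 2090.39), 22002665 to 22003387 (723 bp, 137.83), 22027370 to 22028611 (1242 bp, 290.81) and 22117752 to 22119066 (1315 bp, 1459.88).

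The stretch between the wide H3K27ac blocks at the ends of the proximal part runs for 198 kb between the peaks that end at 21927650 and begin at 22125462, and is the longest in that part without an H3K27ac peak of at least 4000 bp, a choice made after the values were seen. Since all 7 proximal H3K27ac peaks of that width were at the ceiling, the choice itself lowers the count of ceiling H3K27ac peaks in the stretch and raises it outside, and the counts are given only as a description. Of its 14 H3K4me3 peaks 7 were at the ceiling and 10 met H3K27ac. Of its 11 H3K27ac peaks 1 was at the ceiling (22066040 to 22067317, 1278 bp), and the others scored up to 2631.23. In the rest of the proximal part 13 of 17 H3K4me3 peaks and 8 of 10 H3K27ac peaks were. H3K4me3 covered 12.7% of the stretch and H3K27ac 7.99%, both above their 1.35 and 2.49% over all chromosomes. Among its pairs, the H3K4me3 peak at 22008900 to 22012407 (3508 bp, score 3100) met an H3K27ac peak of 1092 bp with a score of 123.45. The peak at 22036080 to 22037957 (1878 bp, 3100) met one of 989 bp with 205.23, and the peak at 22097237 to 22099021 (1785 bp, 3100) met one of 1171 bp with 166.08. H3K27ac exceeded H3K4me3 most in width at 22092486 to 22094731, where H3K27ac had 2246 bp and a score of 2336.79 and H3K4me3 had 1207 bp and 223.68. Along the gene table, a stretch of transfer RNA and other genes lies between the first 19 and the last 5 histone genes of the first run, but the 2 stretches could not be compared without mm9 annotation.

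Among H3K4me3 peaks at the ceiling that met H3K27ac, the H3K27ac peak was below its own ceiling for 7 of 20 in the proximal part and 1 of 15 in the distal part. Together this is 8 of 35 (22.9%, interval 10.4 to 40.1%), compared with 44.3% of such peaks in the whole list. The proximal share alone was 35% (interval 15.4 to 59.2%), which includes 44.3%, and the distal share was 6.67% (interval 0.169 to 31.9%). Several of the 35 share 1 H3K27ac peak, 4 of them the 28.6 kb peak. The intervals take them as independent and may be too narrow.

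Where 1 H3K27ac peak met 1 H3K4me3 peak and no other, the 2 parts differed in which was wider. In the distal part H3K27ac was wider in 11 of 11 pairs, by 77 to 3696 bp (median 1197 bp, interval 431 to 2253 bp). In the proximal part it was wider in 6 of 15 pairs, and the difference ran from -2416 to 1108 bp (median -188 bp, interval -889 to 431 bp). In the whole list it was wider in 52.4% of 13911 pairs. In the proximal part the score moved with this difference: in all 7 pairs with H3K4me3 at the ceiling and H3K27ac below it, H3K4me3 was the wider, whereas of the 4 pairs with both at the ceiling H3K27ac was wider in 3. In the distal part H3K27ac was wider in all 7 pairs with both at the ceiling, by 831 to 3696 bp, and in the 3 pairs with neither. In the 1 pair with only H3K4me3 at the ceiling it was wider by 77 bp, the smallest difference of the 11. A single pair of this kind cannot show whether the score moved with the difference there. The part of the score in the difference was not tested. The largest difference was at 23800285 to 23805738, where 5454 bp of H3K27ac met 1758 bp of H3K4me3.

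**Figure D4:**
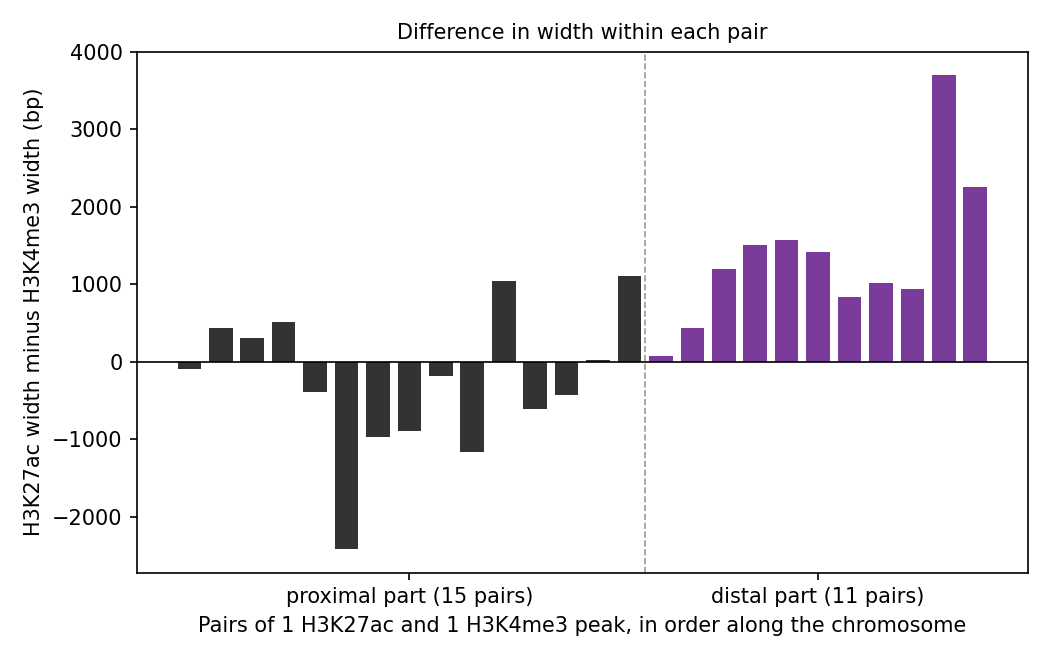
Width of the H3K27ac peak minus that of the H3K4me3 peak (bp, y axis) for each pair of 1 peak of each mark, in order along the chromosome (x axis). All 11 distal pairs lie above 0, by up to 3696 bp, and 9 of the 15 proximal pairs lie below 0.

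The median distance between the centres of neighbouring peaks in the cluster was 9.31 kb for H3K27ac (interval 7.14 to 16.2 kb) and 7.27 kb for H3K4me3 (interval 6.24 to 11.7 kb), compared with 18.1 and 39.5 kb in the whole lists. The peaks of the interval were as close by this measure, with medians of 5.83 kb (interval 1.29 to 54.8 kb) and 9 kb (interval 5.5 to 27 kb), and 10 of each mark lie in its last 100 kb. H3K4me3 spacing was nearly the same in the 2 parts, 7.20 and 7.27 kb. H3K27ac spacing was 14.1 kb in the proximal part (interval 7.78 to 20.9 kb) and 8.27 kb in the distal part (interval 4.88 to 15.4 kb). These 2 intervals overlap. The longest stretch with neither mark was 28.0 kb in the proximal part (22037958 to 22065924) and 58.7 kb in the distal part (23715588 to 23774284). Gaps of such length are common: of the 31406 gaps on all chromosomes, 38.6% were at least as long as the first and 23.2% as the second.

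The interval was bare over most of its length, and its peaks were gathered at its distal end. Neither mark was found over 1016 kb (22374760 to 23390650). A gap at least as long was seen for 1.30% of the 31406 gaps between peaks on all chromosomes. Before this gap lay 3 H3K27ac peaks, at 22192978 to 22194457 (1480 bp, score 432.66), 22194502 to 22195507 (1006 bp, 313.73) and 22374081 to 22374434 (354 bp, 74.35), and 1 H3K4me3 peak, at 22374084 to 22374759 (676 bp, 170.88), which overlapped the last of the 3. After it lay 11 H3K27ac peaks and 15 H3K4me3 peaks, of which 10 and 10 fell in the last 100 kb, next to the distal part. That group held the widest pair of the interval, 4550 bp of H3K27ac (23521202 to 23525751) within 4899 bp of H3K4me3 (23520972 to 23525870), both at the ceiling. Also at the ceiling for both was the pair at 23536615 to 23538754 and 23536702 to 23539289.

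Elsewhere in this group H3K4me3 was at its ceiling where H3K27ac was below its own. The H3K4me3 peaks at 23514523 to 23517153, 23527434 to 23530954, 23540461 to 23542806 and 23544763 to 23546489 were at the ceiling, and the highest H3K27ac scores under them were 1974.99, 1333.59, 2048.45 and 391.90. An H3K4me3 peak of 3402 bp with a score of 3153.36 (23555286 to 23558687) met 832 bp of H3K27ac with 80.68. Farther from the distal part lay a pair at 23459803 to 23462171 (H3K4me3, 3100) and 23459935 to 23461924 (H3K27ac, 2173.79). The first H3K4me3 peaks after the gap, 23390651 to 23392168 (score 1301.77) and 23400750 to 23401607 (116.84), were alone, as were those at 23487869 to 23489047 (173.18), 23493472 to 23494434 (98.41), 23583695 to 23584219 (53.92) and 23592565 to 23593350 (76.50). An H3K27ac peak at 23517636 to 23518247 (55.62) was alone too, and 1 at 23516645 to 23517260 (107.14) shared an H3K4me3 peak with its neighbour. The last overlap, at 23596785 to 23598664 (H3K4me3, 722.86) and 23597140 to 23598341 (H3K27ac, 86.38), ended just before the distal part.

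**Figure D5:**
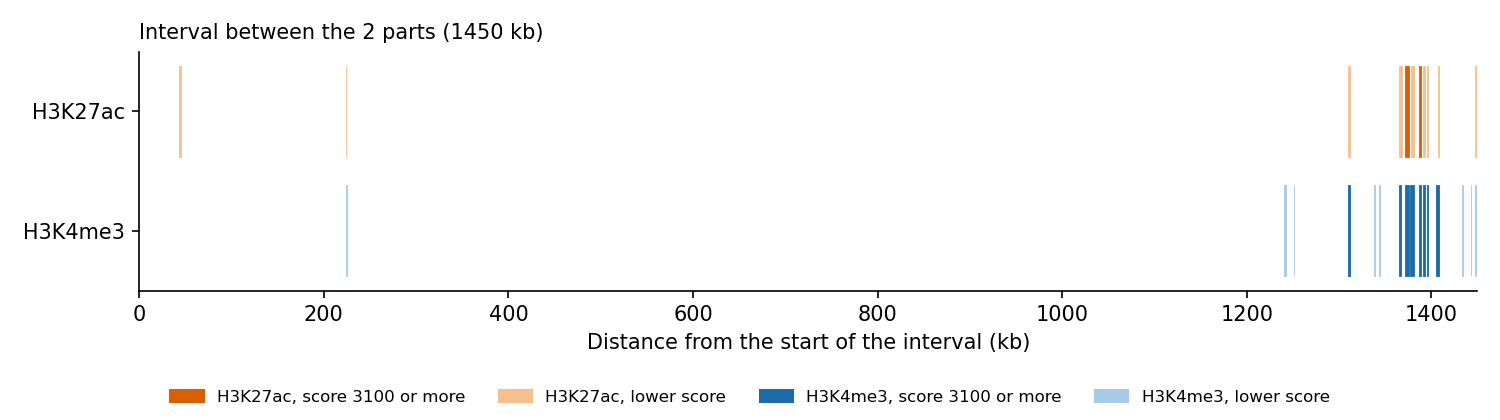
Peaks of H3K27ac (upper row) and H3K4me3 (lower row) along the interval between the 2 parts; the x axis is the distance from its start in kb and dark colours mark scores of 3100 or more. A stretch of 1016 kb has neither mark, and all ceiling peaks lie after it.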

How the data were processed

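Peaks were called by the authors with MACS, a peak caller, on mm9, per the submitters' processing notes. The sources used here do not give the MACS version, aligner, read filters or depth. Each deposited list gives a chromosome, start, end and score per peak, for 1 library per mark. The deposited score is the authors' own and undefined.

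Peaks belonged to a region when they shared at least 1 bp with it, and the same limit defined overlap of the marks. Covered bases were clipped to the region. Positions are counted from 1. Peaks were counted with pandas 2.3.3, intervals computed with SciPy 1.17.1 and NumPy 2.4.6 under Python 3.11.15, figures drawn with Matplotlib 3.10.9, and the overlap code was tested on simulated data. Peaks named were the 5 widest, those of at least 4000 bp, those with 1 mark and the first and last of each part and mark, and all peaks of the interval. The cluster, its bounds and these lists were chosen with earlier results of these data known. Motifs and promoters come from RefSeq tables of GRCm38.p6. Protein sequences were not used here. Alternatives covered scores, bounds, membership, overlap, joining and list length.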

Additional observations from a re-analysis of the deposited data

How the results depend on the processing

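Of 82 alternative values for 16 results, 80 lay inside the reported interval or, for densities and coverage, within 1.5 times of the reported value. The other 2 moved. With the bounds of the cluster drawn in by 20 kb, H3K27ac coverage of the interval was 2.96% in place of 1.57%, because the interval then takes in peaks of the cluster's edge. With the H3K27ac list shortened to its 18142 highest-scoring peaks, 96.7% in place of 85.0% of the cluster's H3K27ac peaks overlapped H3K4me3, since the list then ends at a score of 331.61 and 5 of the 6 without H3K4me3 are below it. The share of H3K4me3 peaks overlapping H3K27ac was then 80.8% in place of 90.4%. No paired analysis was possible because each mark has 1 library. The depth is unknown, so a stretch without a peak may hold signal below the limit of the caller. The score has a ceiling, so peaks tied at it cannot be ranked. The sources used here do not say how reads that match several near-identical histone gene copies were treated.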
